A study of Mus musculus with 6 samples.

Results

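miR-140 and miR-455 are microRNAs (miRNAs) known for their high levels in chondrocytes, the cells of cartilage. Here they were followed in small extracellular vesicles (sEV) shed by cochlear explants in culture. Every row of the deposited count table whose name starts with mmu-miR-140- or mmu-miR-455- was taken, which gave 4 of 810 mature miRNAs, the 5p and the 3p arm of each of the 2 hairpins. All 4 arms passed the filter on low counts, which left 353 of the 810 for testing. Of the 4 arms, miR-140-5p was higher in the sEV of cisplatin-treated explants, and the test called no change of the other 3. No change of the 5p to 3p ratio was called for either hairpin.

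The explants came from ICR mice at postnatal day 3, the strain named in the methods. In the Cis-sEV group the explants were kept for 48 h with 50 µM cisplatin, an anticancer drug that damages hair cells, and in the Ctrl-sEV group with an equal volume of PBS. Both groups were kept in medium whose serum had been cleared of sEV. There were 3 libraries in each group, described as biological replicates, and each held the sEV of about 80 pooled explants.

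A miRNA hairpin is cut by Drosha and Dicer into a short duplex, and one or both of its strands are then loaded into an Argonaute protein, where bases 2 to 8 (the seed) choose the target mRNAs. miR-140 depends on SOX9, the master regulator of chondrocytes, and its loss in mice disturbs skeletal growth and cartilage upkeep. Among its known targets is Adamts5, which encodes a protease that breaks down the aggrecan of cartilage. The bony capsule of the inner ear is first laid down as cartilage. By the methods, the explants were the sensory epithelium on its basement membrane, freed from the bony labyrinth and the spiral ganglion. Carry-over of capsule was not measured.

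The mature sequences are shown because the arms are told apart by sequence alone, and the capitals mark the seed. They were read from the deposited table in the 5′ to 3′ direction.
mmu-miR-140-5p: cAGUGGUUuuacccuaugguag
mmu-miR-140-3p: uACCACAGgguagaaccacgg
mmu-miR-455-5p: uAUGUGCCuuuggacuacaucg
mmu-miR-455-3p: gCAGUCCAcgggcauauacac
The 4 seeds differ from one another, so each arm is its own family by this measure. Both 5p arms are 22 nt long with a GC content of 45.5%, and both 3p arms are 21 nt long with a GC content of 57.1%. Of the 810 mature miRNAs, 1 other shared a seed with any arm. This was miR-497b, with the seed of miR-140-3p in the sequence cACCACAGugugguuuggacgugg. It had 9 reads in Cis-sEV library 3 and 0 reads in each of the other libraries.

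The hairpins given with the deposited counts show how each pair of arms lies in its precursor, with both arms in capitals.
mmu-mir-140: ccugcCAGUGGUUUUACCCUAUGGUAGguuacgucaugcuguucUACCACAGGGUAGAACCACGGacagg
mmu-mir-455: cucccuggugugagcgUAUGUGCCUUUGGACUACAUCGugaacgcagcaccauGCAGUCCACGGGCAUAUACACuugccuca
The mir-140 hairpin has 70 nt, with 17 nt between the arms, and mir-455 has 82 nt, with 15 nt between them. In the fold of lowest energy that RNAfold predicted, 19 base pairs join the arms of mir-140 (-39.1 kcal/mol) and 16 join those of mir-455 (-36.5 kcal/mol). Mir140 lies at chr8:107551244-107551313 (GRCm38, plus strand) inside Wwp2, which encodes a ubiquitin ligase. Of the 4 Wwp2 transcripts that span it, 3 coding transcripts hold it in an intron and 1 retained-intron transcript holds it in an exon. Mir455 lies at chr4:63256851-63256932 (plus strand) inside Col27a1, which encodes a fibrillar collagen of cartilage. All 4 Col27a1 transcripts that span it hold it in an intron.

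Library depth bears on every value of these miRNAs. The Cis-sEV libraries held 1722359 to 1794175 miRNA reads and the Ctrl-sEV libraries 528952 to 718597. Levels are in CPM, reads scaled to equal totals of miRNA reads. A count of 0 allows a level of up to that of 3 reads, which was 1.67 to 1.74 CPM across the Cis-sEV libraries but 4.17 to 5.67 CPM across those of Ctrl-sEV. Such limits and the intervals below cover counting error only, since copies of one molecule made by PCR were not told apart. For the tests they were scaled further by edgeR's trimmed mean of M-values (TMM) factors, 1.10 to 1.18 for the Cis-sEV libraries and 0.762 to 0.997 for the Ctrl-sEV libraries. On this scale the median tested miRNA was higher in Cis-sEV by 0.44 in log2, and a called miRNA had an adjusted p of at most 0.05 and a log2 fold change of at least 1 in either direction. The medium holds sEV of all cells of the explant, so more sEV from one cell type and more of a miRNA in each sEV cannot be told apart.

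miR-140-5p, the arm behind most of the known roles of miR-140, had 434, 381 and 265 reads in Cis-sEV libraries 1, 2 and 3. In Ctrl-sEV libraries 1, 2 and 3 it had 1, 2 and 3 reads. Every Cis-sEV library thus lay far above every Ctrl-sEV library. On the TMM scale its levels were 218, 202 and 125 CPM against 2.44, 2.80 and 6.20 CPM, in the same order of libraries. The means were 182 ± 49.7 and 3.81 ± 2.08 CPM (SD, n = 3 each). At the mean Cis-sEV level, Ctrl-sEV libraries 1, 2 and 3 would have held 74.6, 130 and 88.0 reads if read sampling alone acted. Many miRNAs differed among the Ctrl-sEV libraries by more than sampling, as given below. The reason for the low counts was not tested. The edgeR quasi-likelihood test gave a log2 fold change of 5.54 (SE 1.18) with a Benjamini-Hochberg adjusted p of 0.0119. With 6 reads in all of Ctrl-sEV the size of the fold is loosely set. The ratio of the summed read shares was 60.6, with a 95% counting interval of 27.8 to 166.

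miR-140-3p, the arm opposite, had 147, 103 and 120 reads in Cis-sEV. In Ctrl-sEV it had 65 reads in library 1 and 0 in libraries 2 and 3. Library 1 alone therefore gave it its level in Ctrl-sEV, while the 3 Cis-sEV libraries lay close together. The TMM-scaled levels were 74.0, 54.6 and 56.8 CPM against 158, 0 and 0 CPM. The groups overlapped, with means of 61.8 ± 10.6 and 52.8 ± 91.5 CPM (SD, n = 3 each). The log2 fold change was 0.23 (SE 2.17), with an edgeR adjusted p of 0.953.

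miR-455-3p, the more abundant arm of its hairpin, had 178, 140 and 231 reads in Cis-sEV and 36, 65 and 0 reads in Ctrl-sEV. Its TMM-scaled levels were 89.6, 74.2 and 109 CPM against 87.8, 90.9 and 0 CPM. Ctrl-sEV libraries 1 and 2 lay within the range of Cis-sEV, and library 3, where 44.0 reads would have been found at the Cis-sEV mean, held none. The log2 fold change was 0.61 (SE 1.63), with an edgeR adjusted p of 0.855.

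miR-455-5p, the other arm, had 78, 94 and 116 reads in Cis-sEV and 29, 2 and 2 reads in Ctrl-sEV. Its TMM-scaled levels were 39.3, 49.8 and 54.9 CPM against 70.7, 2.80 and 4.14 CPM. As for miR-140-3p, Ctrl-sEV library 1 lay above all 3 Cis-sEV libraries and the other Ctrl-sEV libraries lay below them. The log2 fold change was 0.90 (SE 1.47), with an edgeR adjusted p of 0.741.

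Thus 1 of the 4 arms was called, and it was called higher. Over all tested miRNAs 106 of 353 (30%) were called, and 83 (23.5%) were called higher in Cis-sEV, so the count of 1 does not set these arms apart. Likewise 1 of the 4 arms had every Cis-sEV library above every Ctrl-sEV library, which 133 of 353 tested miRNAs (37.7%) had. All 4 estimates were positive and above the median of all tested miRNAs save that of miR-140-3p.

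**Figure D1:**
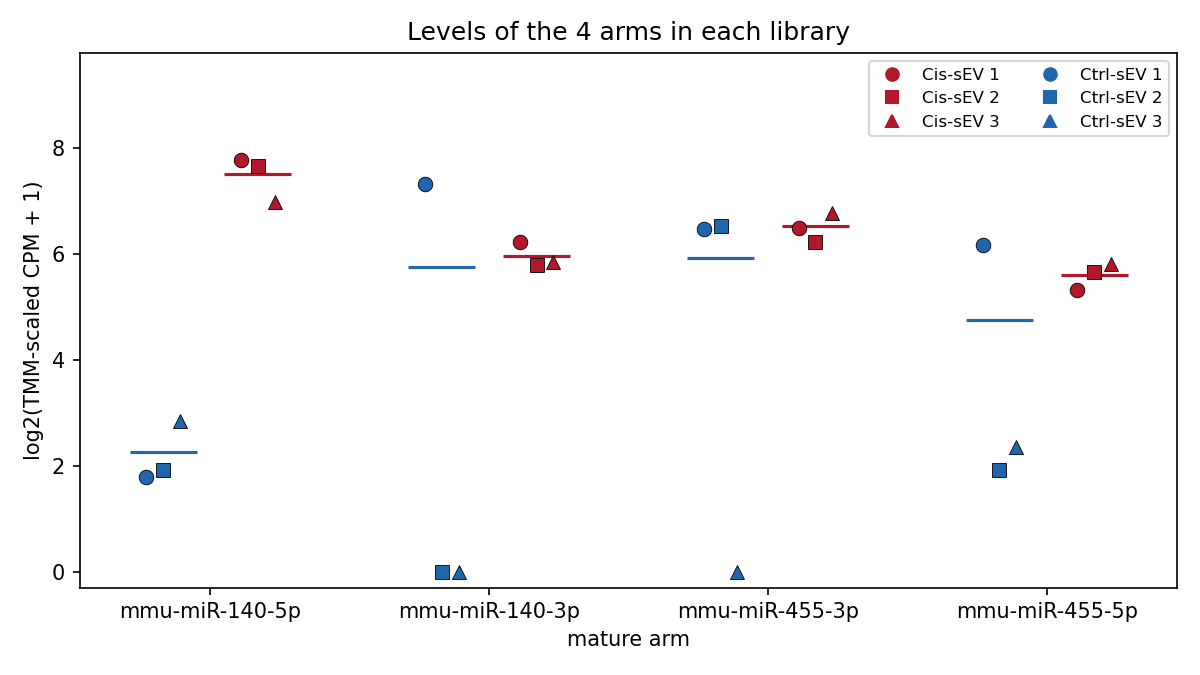
TMM-scaled CPM of the 4 arms (y axis, log2 of the value plus 1) in each of the 6 libraries, with red symbols for Cis-sEV, blue for Ctrl-sEV, and short lines at the log2 of the group mean plus 1. Only miR-140-5p has its groups apart, at 125 to 218 against 2.44 to 6.20 CPM, while Ctrl-sEV library 1 lies at or above the Cis-sEV levels for miR-140-3p and miR-455-5p.

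Among the Cis-sEV libraries the 4 arms kept one order, with miR-140-5p highest, then miR-455-3p, miR-140-3p and miR-455-5p in each library. All 4 matures are 21 or 22 nt long, so these levels can be set side by side, although ligation and amplification can favour one sequence over another. The ranges of miR-140-5p (125 to 218 CPM) and miR-455-3p (74.2 to 109 CPM) did not overlap. Those of miR-455-3p and miR-140-3p (54.6 to 74.0 CPM) all but touched, and that of miR-455-5p (39.3 to 54.9 CPM) overlapped with the range of miR-140-3p. By mean level, miR-140-5p stood at position 146 of 810 in Cis-sEV and at position 333 in Ctrl-sEV. The positions in Cis-sEV and Ctrl-sEV were 181 and 208 for miR-455-3p, 202 and 222 for miR-140-3p, and 218 and 291 for miR-455-5p. All 4 arms thus stood in the upper part of the table, though below its most abundant miRNAs, and they made up 408 to 467 CPM before TMM scaling in the Cis-sEV libraries. In Ctrl-sEV libraries 1, 2 and 3 they made up 243, 96.0 and 9.45 CPM.

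The replicates of Ctrl-sEV differed by far more than the sampling of reads for 3 of the 4 arms. The chi-square per degree of freedom over the 3 Ctrl-sEV libraries, which is about 1 when libraries differ by sampling alone, was 75.1 for miR-140-3p, 26.0 for miR-455-5p and 22.8 for miR-455-3p. It was 0.639 for miR-140-5p, whose 6 reads leave little to differ. In Cis-sEV it was 3.28, 3.68, 9.79 and 21.7 in the same order of arms. miR-140-5p thus varied most among the Cis-sEV libraries, where its level in library 3 lay below the other 2. The medians over the 353 tested miRNAs were 14.2 in Cis-sEV and 52.1 in Ctrl-sEV.

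The pattern of miR-140-3p and miR-455-5p, many reads in 1 Ctrl-sEV library and almost none in the others, was looked for in the whole table after these values had been seen. Of the 353 tested miRNAs, 71 (20.1%) had at least 20 reads in 1 Ctrl-sEV library and at most 3 in each of the others, and these 2 arms were among them. In Cis-sEV 0 of 353 (0%) had that pattern, but the 2 counts cannot be set side by side. A miRNA with that pattern in Cis-sEV could pass the filter on low counts only through its Ctrl-sEV reads. The limit of 3 reads was also 1.67 to 1.74 CPM in the Cis-sEV libraries but 4.17 to 5.67 CPM in those of Ctrl-sEV. The pattern is thus shared by many miRNAs of the Ctrl-sEV libraries and is not particular to the 2 arms.

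Leaving out Ctrl-sEV library 1 changed the calls of 2 arms. Without it miR-140-3p had 370 reads in Cis-sEV and 0 in Ctrl-sEV, which is at least 29.0-fold higher in read share with 3 reads set in place of 0 over the group, and it was called (edgeR adjusted p = 0.0258). miR-455-5p was called as well, with 288 reads against 4, a log2 fold change of 3.70 and an edgeR adjusted p of 0.0321. With miR-140-5p (5.26, edgeR adjusted p = 0.0248), 3 of the 4 arms were then higher in Cis-sEV. The ratio of read shares for miR-455-3p without that library was 1.99 (95% counting interval 1.53 to 2.61), and it was not called. The call of miR-140-5p was lost without Cis-sEV library 1 (5.27, edgeR adjusted p = 0.144) or library 2 (5.39, edgeR adjusted p = 0.101), although the fold change stayed close to that of all 6 libraries. Calls became fewer over the whole table as well. Without Cis-sEV library 1, 40 of 341 tested miRNAs were called higher, and without Cis-sEV library 2, 44 of 342. With all 6 libraries 83 of 353 were called higher. Nothing in the labels sets any of these libraries apart.

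**Figure D2:**
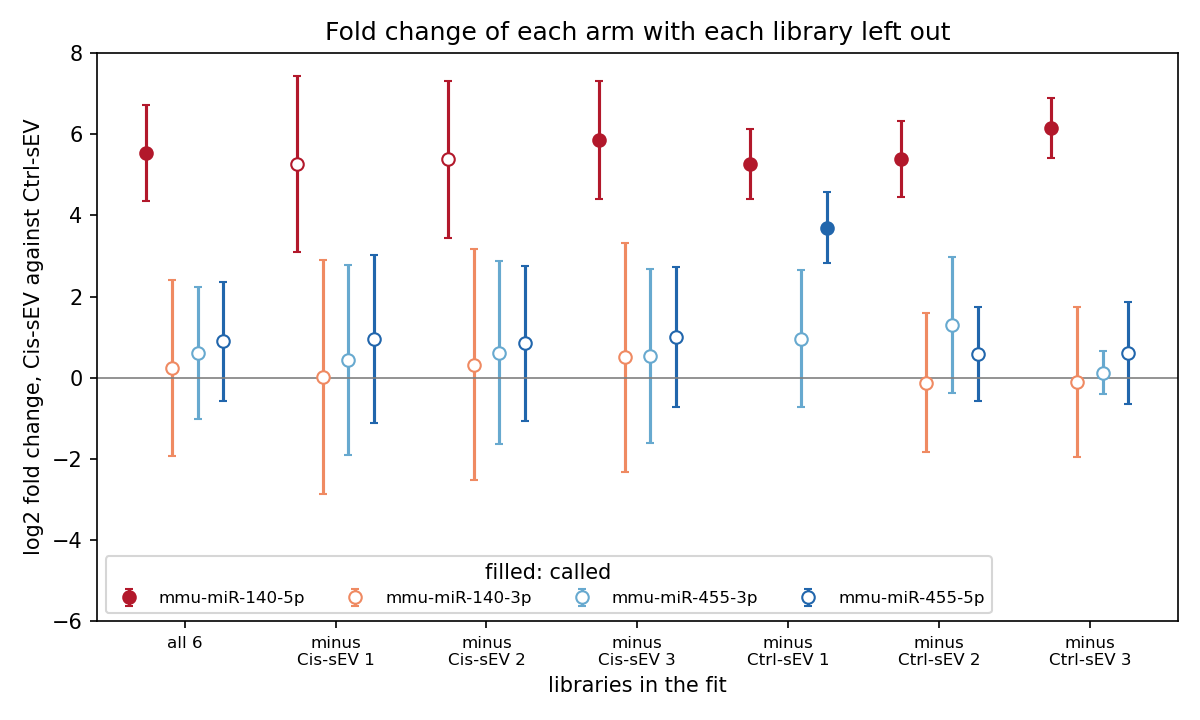
Log2 fold change of each arm, Cis-sEV against Ctrl-sEV (y axis, bars are standard errors), fitted on all 6 libraries and with each library left out in turn, with filled symbols where the arm was called. miR-140-5p stays between 5.26 and 6.14, while the other arms move with the Ctrl-sEV library left out; miR-140-3p has no symbol without Ctrl-sEV library 1, where it had 0 reads in Ctrl-sEV.

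The 2 hairpins favoured opposite arms in Cis-sEV. For miR-140 the 5p arm held 74.7% (95% Clopper-Pearson interval 71.0 to 78.2), 78.7% (74.8 to 82.3) and 68.8% (63.9 to 73.4) of the reads of both arms in Cis-sEV libraries 1, 2 and 3. For miR-455 it held 30.5% (24.9 to 36.5), 40.2% (33.8 to 46.8) and 33.4% (28.5 to 38.7). The intervals of the 2 hairpins lay far apart in each library, so the 5p arm was the major one for miR-140 and the 3p arm for miR-455. As 5p to 3p ratios these shares were 2.95, 3.70 and 2.21 for miR-140, and 0.438, 0.671 and 0.502 for miR-455. The ratio of miR-140 varied among the 3 libraries by more than sampling (chi-square per degree of freedom 5.53), and that of miR-455 less so (2.68).

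In Ctrl-sEV the shares scattered from one end of the scale to the other. The 5p arm of miR-140 held 1 of 66 reads in library 1, or 1.52% (0.0384 to 8.16), the reverse of the balance in Cis-sEV. In libraries 2 and 3 it held 2 of 2 and 3 of 3 reads, which with intervals of 15.8 to 100 and 29.2 to 100% allow the Cis-sEV share as well. The 5p arm of miR-455 held 44.6% (32.3 to 57.5) of 65 reads in library 1 and 2.99% (0.364 to 10.4) of 67 reads in library 2. In library 3 it held 2 of 2 reads. Only library 1 thus had enough reads of both hairpins to compare their balance, and there the 5p share was lower for miR-140 than for miR-455.

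**Figure D3:**
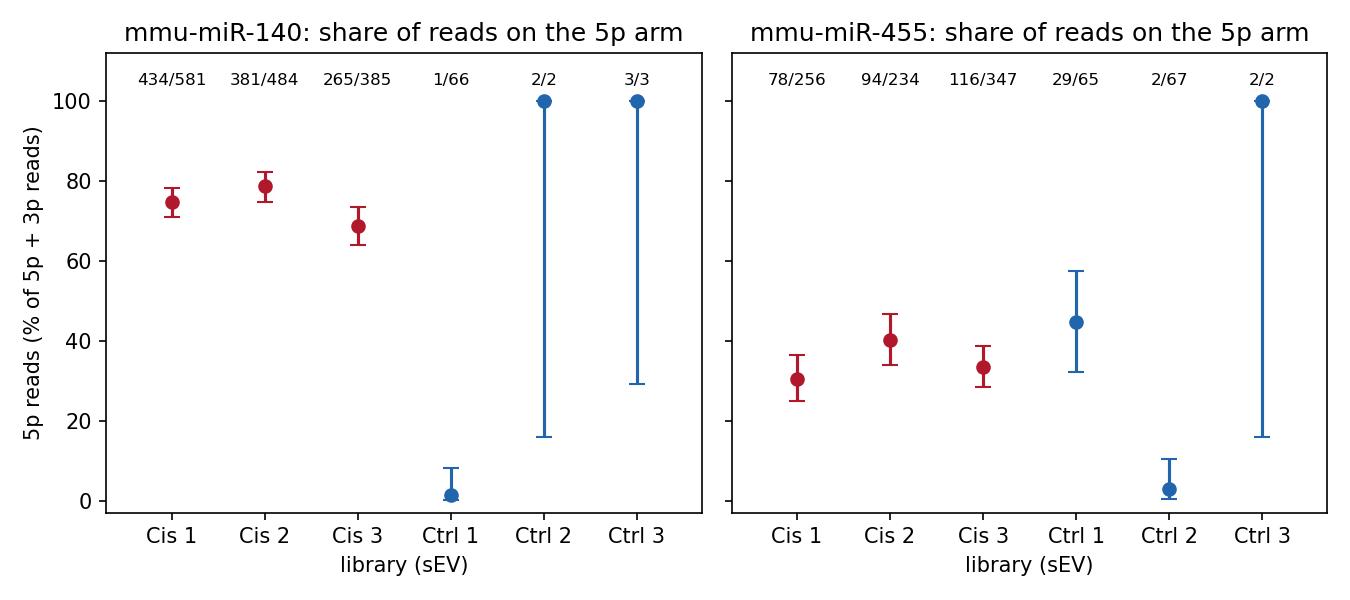
Share of reads on the 5p arm (y axis, % of 5p and 3p reads) in each library for miR-140 (left) and miR-455 (right), with 95% Clopper-Pearson intervals and the reads of the 5p arm over both arms written above. The Cis-sEV shares (red) sit at 68.8 to 78.7% and 30.5 to 40.2%, while the Ctrl-sEV shares (blue) range from 1.52 to 100% and from 2.99 to 100%.

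The change of the 5p to 3p ratio between the groups was tested with an arm by group term in edgeR, in which scaling between libraries cancels. For miR-140 the log2 ratio was higher in Cis-sEV by 0.70 (SE 4.73), with an edgeR adjusted p of 1. For miR-455 the log2 change was -0.06 (SE 1.71), again with an edgeR adjusted p of 1. These standard errors are too wide to show that the ratios were alike, and the replicates in Ctrl-sEV set them. Of the 122 hairpins tested in this way 0 (0%) were called by edgeR, and 24 had an unadjusted p under 0.05. limma on the log2 ratios gave 12 of the 122 an adjusted p of at most 0.05, neither of these hairpins among them. Unlike the edgeR count, the limma count had no limit on the size of the change.

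Computed per library with 0.5 added to the reads of each arm, the mean log2 ratio of miR-140 was 1.53 ± 0.37 in Cis-sEV and -0.11 ± 4.63 in Ctrl-sEV (SD, n = 3 each). The difference of 1.63 had a two-sided exact permutation p of 1. The mean log2 ratio of miR-455 was -0.92 ± 0.31 in Cis-sEV and -0.90 ± 3.55 in Ctrl-sEV (SD, n = 3 each). The difference of -0.02 also had a two-sided exact permutation p of 1, and 3 libraries against 3 cannot give a p below 0.1. The spread in Ctrl-sEV was thus over 10-fold that in Cis-sEV for both hairpins on this scale. Summed over the libraries of a group, the odds of a 5p read were 31.5 times as high in Cis-sEV for miR-140 (95% counting interval 13.6 to 90.0) and 1.60 times as high for miR-455 (1.04 to 2.52). These intervals leave out the spread between libraries, and Ctrl-sEV library 1 gave all 65 of the 3p reads behind the ratio of miR-140.

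A wider spread in Ctrl-sEV was common to other hairpins. Among the 78 of these hairpins with at least 1 read in every library, the median SD of the log2 ratio was 0.88 over the Cis-sEV and 2.51 over the Ctrl-sEV libraries, and 51 had the higher SD in Ctrl-sEV. miR-140 ranked 10 of 78 by SD in Ctrl-sEV and 59 in Cis-sEV, and miR-455 ranked 27 and 64. Both were thus among the steadier hairpins in Cis-sEV and among the more variable in Ctrl-sEV. The 5p arm was the major one in all 3 Cis-sEV libraries for 44 of the 78, as for miR-140, and the 3p arm for 28, as for miR-455. The major arm switched between libraries of Ctrl-sEV for 13 of the 78, both of these hairpins included, and between libraries of Cis-sEV for 6. For miR-140 and miR-455, the Ctrl-sEV libraries in which 5p was the major arm held only 2 or 3 reads of the hairpin. So few reads set the major arm loosely.

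**Figure D4:**
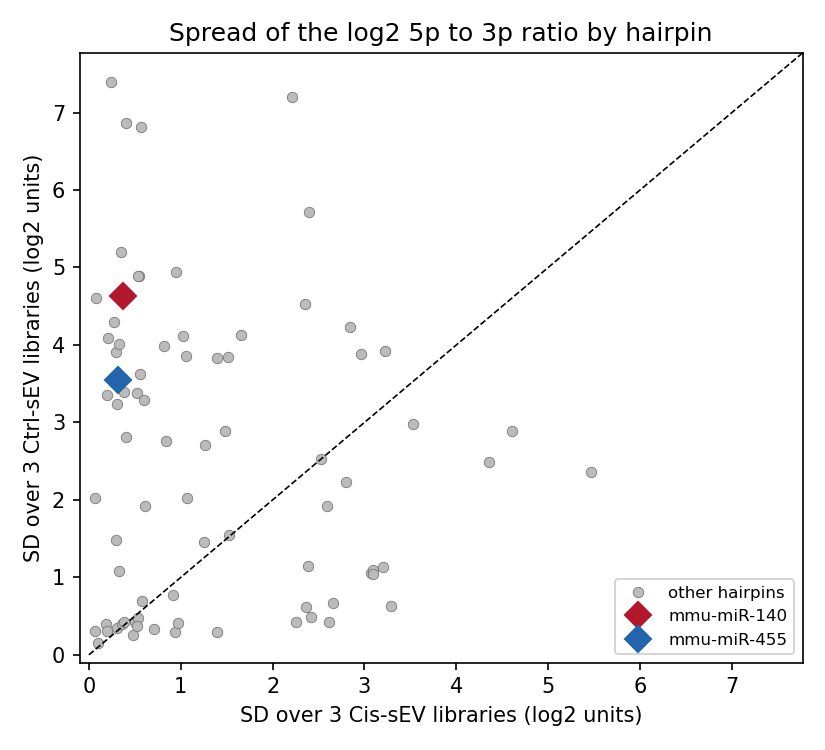
SD of the log2 5p to 3p ratio over the 3 Ctrl-sEV libraries (y axis) against that over the 3 Cis-sEV libraries (x axis) for 78 hairpins, with equal spread on the dashed line. miR-140 (red, 4.63 against 0.37) and miR-455 (blue, 3.55 against 0.31) lie high above the line, as do many other hairpins.

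With both arms summed, miR-140 had 581, 484 and 385 reads in Cis-sEV and 66, 2 and 3 reads in Ctrl-sEV. The TMM-scaled levels of 287, 247 and 174 CPM lay above those of 169, 2.99 and 6.12 CPM, so the groups did not overlap, although Cis-sEV library 3 and Ctrl-sEV library 1 lay side by side. The log2 fold change was 2.00 (SE 1.50), with an edgeR adjusted p of 0.405. miR-455 had 256, 234 and 347 reads in Cis-sEV and 65, 67 and 2 reads in Ctrl-sEV. Its levels of 127, 119 and 157 CPM overlapped with those of 167, 100.03 and 4.08 CPM. The log2 fold change was 0.57 (SE 1.25), with an edgeR adjusted p of 0.794. As sums, neither hairpin was called, beside 62 of 296 summed miRNAs (20.9%) called higher and 98 of 296 (33.1%) with every Cis-sEV library above every Ctrl-sEV library. Without Ctrl-sEV library 1 summed miR-140 was called, with a log2 fold change of 5.76 and an edgeR adjusted p of 0.0121.

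The miRNAs whose levels ran most like each arm are given as a description over 6 libraries, which share their groups and depths, and among 352 others. Closest to miR-140-5p were miR-365-3p and miR-190b-5p, each with a Pearson r of 0.996 on log2(TMM-scaled CPM + 1), and then miR-1843b-3p, miR-3535 and miR-598-3p (0.991 to 0.992). miR-365-3p had 224, 172 and 185 reads in Cis-sEV and 0, 0 and 1 in Ctrl-sEV, the same near absence from Ctrl-sEV. Closest to miR-140-3p were miR-1843a-3p and miR-467c-5p (0.999 each), then miR-384-5p, miR-219a-2-3p and miR-1981-5p (0.991 to 0.997). With 115, 100 and 108 reads in Cis-sEV and 47, 0 and 0 in Ctrl-sEV, miR-1843a-3p had its reads in the same Ctrl-sEV library as miR-140-3p. Closest to miR-455-5p were miR-1843a-3p and miR-467c-5p again (0.992 each), then a miRNA predicted from the reads, miR-219a-2-3p and miR-140-3p (0.989 to 0.991). Closest to miR-455-3p was miR-338-5p (0.993), followed by miR-19b-3p, miR-192-5p, miR-200c-3p and miR-221-3p (0.931 to 0.976).

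Sharing a hairpin did not go with the closest likeness among the 4 arms. The Pearson r was 0.519 between miR-140-5p and miR-140-3p and 0.564 between the arms of miR-455, but 0.989 between miR-140-3p and miR-455-5p. That last pair shared its reads in Ctrl-sEV library 1 and near absence in libraries 2 and 3. With 6 libraries these values describe the pattern of reads over the Ctrl-sEV libraries and carry no test.

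Other miRNAs linked to cartilage were taken as a list of 15 from general knowledge, of which 14 were tested. Of these edgeR called 2 higher in Cis-sEV and 2 lower, and 10 did not pass. Over all tested miRNAs edgeR called 106 of 353 (30%), 83 of these higher and only the rest lower. The count depends on the tool, since DESeq2 called 3 of the list, limma-voom 5 and the MA-plot test on summed reads 11. Over all miRNAs DESeq2 called 82 higher and 23 lower of 485, and limma-voom 30 higher and 13 lower of 353. The MA-plot test called 376 higher and 108 lower of 810. The median edgeR log2 fold change of the 14 was 1.43, against 0.44 for all tested miRNAs, and 11 of the 14 estimates were positive. The list therefore moved in both directions. miR-365-3p, which is known to promote chondrocyte differentiation, was higher, with 581 reads against 1 (edgeR adjusted p = 0.0202; ratio of read shares 196, 95% counting interval 35.0 to 7740). miR-27b-3p, a repressor of the collagenase gene Mmp13, was higher by 1.53 in log2 (SE 0.20, edgeR adjusted p = 0.00502), with a mean of 5497 against 1901 CPM. These 2 shared the direction of miR-140-5p. miR-204-5p, the most abundant of the list, had a log2 fold change of -1.93 (SE 0.23) and miR-92a-3p, of the miR-17-92 cluster, one of -1.43 (SE 0.18), each with an edgeR adjusted p of 0.00502. miR-204-5p alone had a mean of 58160 against 220895 CPM and set the summed level of the list, 75749 to 88416 CPM in Cis-sEV against 180348 to 306410 CPM in Ctrl-sEV. It is also known from the retinal pigment epithelium and other epithelia, so the list as a whole does not mark cartilage alone. Levels of this list and of the lists below are in TMM-scaled CPM.

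Some of the list that were not called had nearly all of their Ctrl-sEV reads in 1 library, like miR-140-3p. miR-675-3p, which is processed from the long RNA H19, had 403, 475 and 721 reads in Cis-sEV and 0, 0 and 147 in Ctrl-sEV (log2 fold change 1.39, edgeR adjusted p = 0.716). Its partner miR-675-5p had 13 reads in Cis-sEV library 1, 0 elsewhere, and was not tested. The Ctrl-sEV reads of miR-193b-3p were 0, 0 and 49, and those of miR-335-5p were 1, 100 and 0. miR-148a-3p, by contrast, had reads in 2 Ctrl-sEV libraries, 36 in library 1 and 45 in library 3. The log2 fold changes of miR-335-5p, miR-193b-3p and miR-148a-3p were 3.43, 3.14 and 3.04, with edgeR adjusted p from 0.100 to 0.325. The remaining tested members ran from -0.08 for miR-146a-5p to 1.72 for miR-145a-5p.

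**Figure D5:**
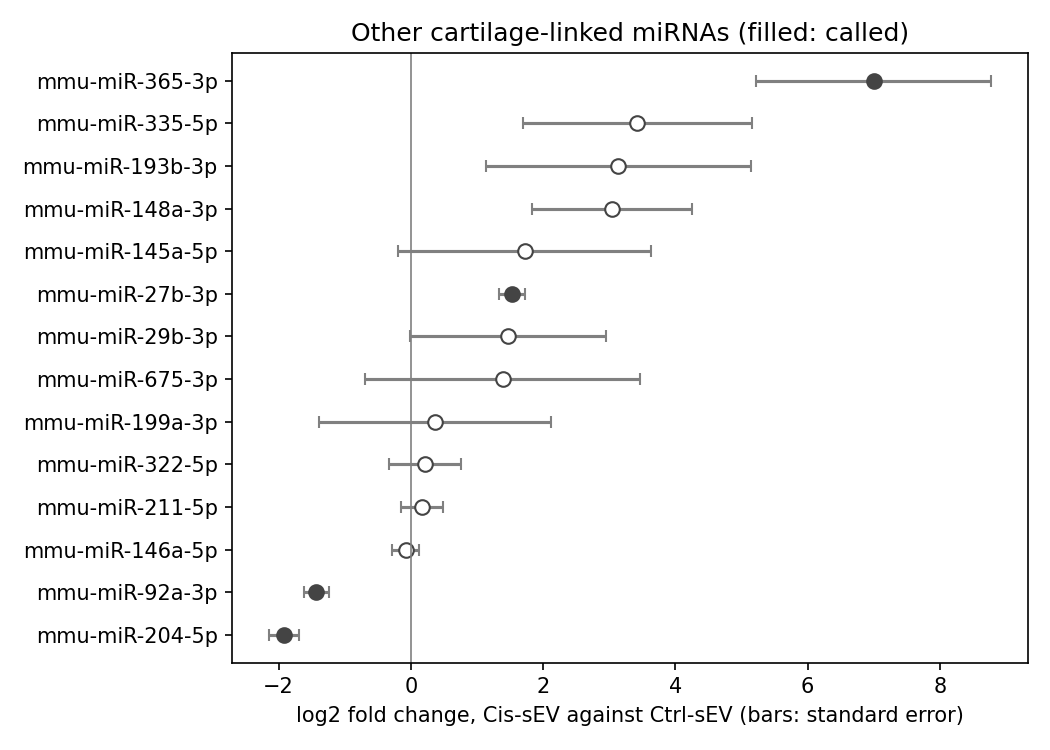
Log2 fold changes (x axis, Cis-sEV against Ctrl-sEV, bars are standard errors) of the 14 tested cartilage-linked miRNAs other than miR-140 and miR-455, with filled symbols for the called. Of these 2 are called higher and 2 lower, and the widest bars belong to miRNAs with few or no reads in some Ctrl-sEV libraries, so that the position of miR-365-3p, with 1 read in Ctrl-sEV, is no measure of its fold.

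Lists for other cell types whose sEV the medium could hold differed in direction. The part of those cell types in the level of miR-140-5p was not tested. Of 7 neuronal miRNAs tested edgeR called 2 higher, close to the 23.5% of all tested miRNAs, while DESeq2 called 1 and limma-voom 2. The summed level of the 7 was 13252 to 14074 CPM in Cis-sEV against 4466 to 7011 CPM in Ctrl-sEV. Most of it came from miR-218-5p (means of 11425 against 4195 CPM). Of 7 miRNAs of mesenchyme and fibroblasts 0 were called by edgeR, DESeq2 or limma-voom. An unadjusted edgeR p under 0.05 was found for 1 of them, beside 147 of all 353 tested miRNAs. The MA-plot test on summed reads called 5, beside 376 higher and 108 lower of all 810. Their median log2 fold change of 0.55 was close to the 0.44 of all tested miRNAs, with sums of 5576 to 9454 against 3355 to 4826 CPM. Of 8 blood miRNAs 4 were tested and edgeR called 2 lower. Over all tested miRNAs edgeR called 106 of 353, 83 of these higher and only the rest lower. DESeq2 also called 2 of the blood list and limma-voom called 0. The sums of the blood list were 1214 to 1551 against 2059 to 4515 CPM, the direction opposite to that of miR-140-5p. No row was found in the table used here for miR-142a, a defining leukocyte miRNA. The 3 hair cell miRNAs, which mark the sensory cells of the cochlea, had sums that overlapped, 50138 to 73508 against 56046 to 73319 CPM. Of these miR-183-5p, the most abundant, had means of 34583 against 48421 CPM and a log2 fold change of -0.49 (edgeR adjusted p = 0.0419), under the limit on the fold. miR-96-5p was called higher by 2.08 in log2 by edgeR (adjusted p = 0.0142), and miR-182-5p had a log2 fold change of 0.18 (edgeR adjusted p = 0.782). edgeR thus called 1 of the 3 higher, beside 23.5% of all tested miRNAs, and DESeq2 and limma-voom each called 0 of the 3. Over all miRNAs DESeq2 called 82 higher and 23 lower of 485, and limma-voom 30 higher and 13 lower of 353.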

How the data were processed

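RNA of 18 to 30 nt was cut from a gel by the authors and read on a DNBSEQ machine. The reads were placed on GRCm38.p6 with Bowtie2 and annotated with AASRA and cmsearch, miRBase first. The authors' table holds raw counts per mature miRNA and library. The mean columns of the groups in the same table were not used.

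Counts were tested with edgeR 4.0.16 (quasi-likelihood fit, TMM factors, filterByExpr with 10 reads in a library and 15 in all, R 4.3.3), with Benjamini-Hochberg adjustment over all 353 tested miRNAs. No block was used, since the authors' methods name none, and whether the numbers 1 to 3 pair the samples is not known. The arm by group term was fitted on hairpins with at least 10 reads over both arms in 3 libraries and 10 reads of each arm, with library as a term. Standard errors given with edgeR values were worked back from the test. Each is the absolute log2 fold change divided by the square root of the F statistic, and is approximate. Alternatives were other scalings and filters, DESeq2 1.42.0, limma 3.58.1, the MA-plot test on summed counts that the authors name, and each library left out. The scripts were first tested on simulated data that held much less spread between libraries than the counts here, so that test does not cover such spread. Folds of hairpins were computed with ViennaRNA 2.7.2, and genes placed with GENCODE M21.

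Named miRNAs are the 4 arms, those sharing a seed, the 5 most alike in level to each arm, and up to 6 of each list, largest called change first, then by level. In the report 2 further groups were named after their values were seen, those with reads in 1 Ctrl-sEV library and members of the lists that were not called. The members and lists were chosen with earlier results of these data known. p-values measure the spread between pooled samples of about 80 explants each.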

Additional observations from a re-analysis of the deposited data

How the results depend on the processing

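miR-140-5p was called with a log2 fold change of 5.24 to 5.85 under 4 other scalings, 2 other filters, DESeq2 and limma-voom. The 1 call among the 4 arms became 2 with the MA-plot test on summed counts, which ignores the spread between libraries and added miR-455-5p (1.56). That test called 376 of all 810 miRNAs higher and 108 lower. With each library left out the number of called arms ranged from 0 to 3, and the log2 fold change of miR-140-5p from 5.26 to 6.14. That of miR-140-3p was -0.12 without Ctrl-sEV library 2 and -0.12 without library 3, and positive otherwise, up to 9.47 without library 1, a value that depends on the prior count since Ctrl-sEV then had 0 reads. With each library left out, the log2 change of the arm ratio ranged from -3.89 (without Ctrl-sEV library 1) to 3.77 for miR-140 and from -1.85 to 1.56 for miR-455. With summed reads and all libraries it was 4.98 for miR-140 and 0.68 for miR-455, and with 1 read added to each arm 2.01 and 0.15. The summed arms of miR-140 ranged from 1.44 to 5.76 and were called only without Ctrl-sEV library 1.

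Same-numbered samples deviated with correlations of -0.05, -0.18 and -0.01, and samples of unlike number with correlations of -0.12 to 0.16. With so few libraries these values cannot show whether the replicate numbers pair the samples. With the replicate number as a block 24 miRNAs were called in place of 106, with 0 of the 4 arms among them, and miR-140-5p had a log2 fold change of 5.60 (edgeR adjusted p = 0.161). Depth limits the arm ratios in Ctrl-sEV, where library 3 held 5 reads of both hairpins and library 2 held 2 reads of miR-140.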
